A study of Homo sapiens with 14 samples.

Results

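The transcripts described here are 10 messenger RNAs of the human mitochondrial genome: MT-ND1, MT-ND2, MT-ND3, MT-ND4, MT-ND5, MT-CO1, MT-CO2, MT-CO3, MT-CYB and MT-ATP6. They were taken from the gene tables by symbol and chromosome and make up 10 of the 58051 genes counted, and 10 of the 13 protein-coding genes on chromosome MT. The other 27 genes of that chromosome are MT-ATP8, MT-ND4L and MT-ND6, the 2 ribosomal RNAs MT-RNR1 and MT-RNR2, and 22 transfer RNAs. All 10 members passed the filter on low values in both cell lines, with 7545 to 691699 reads per gene and library.

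The study sequenced poly(A)-selected RNA of MM1.S and H929, established lines of multiple myeloma, a cancer of plasma cells, after depletion of ZBP1, a protein that binds Z-form DNA and RNA. Every group was grown in RPMI 1640 with 10% FBS and carried a lentivirus, so all control cells were transduced too. In MM1.S the groups were shRNA1 against ZBP1, shRNA2 against ZBP1 and 1 scramble control used for both hairpins. In H929 they were shRNA1 with a scramble control of its own and shRNA2 with another. Each of the 7 groups held 2 libraries. Per gene, log2 fold changes are hairpin over scramble with their standard error, and a gene is called higher or lower at a Benjamini-Hochberg adjusted p under 0.05 over all genes tested, by edgeR in MM1.S and limma in H929. The labels do not tie replicates to different cultures. The p-values therefore measure only how far these libraries spread, which may be technical.

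Mitochondrial DNA encodes a few membrane subunits of the respiratory chain, while the nucleus encodes all other subunits and every protein that copies, transcribes and processes mitochondrial DNA. Transcription from the heavy-strand promoter gives long transcripts that hold the ribosomal RNAs first and then all 10 members, and cleavage at the transfer RNAs between them releases the separate RNAs. Levels of RNAs cut from the same transcript can therefore differ through stability and processing as well as through transcription. Plasma cells secrete large amounts of antibody, which takes ATP.

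The 3′ ends of the members are shown because the libraries were made from polyadenylated RNA and the poly(A) tail is part of the reading frame in several of these mRNAs. The last 15 bases of each gene follow, from the GENCODE release 29 transcripts (GRCh38, chromosome M, plus strand), with the encoded letters of the stop codon in capitals.
MT-ND1, chrM:4248-4262: tccccctcaaaccTA
MT-ND2, chrM:5497-5511: tactaataatcttaT
MT-CO1, chrM:7431-7445: tacataaaatctAGA
MT-CO2, chrM:8255-8269: gtatttaccctaTAG
MT-ATP6, chrM:9193-9207: cacgacaacacaTAA
MT-CO3, chrM:9976-9990: attgatgagggtctT
MT-ND3, chrM:10390-10404: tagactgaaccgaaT
MT-ND4, chrM:12123-12137: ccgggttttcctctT
MT-ND5, chrM:14134-14148: ctcctaatcacaTAA
MT-CYB, chrM:15873-15887: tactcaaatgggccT
In 6 of the 10 genes (MT-ND1, MT-ND2, MT-CO3, MT-ND3, MT-ND4 and MT-CYB) the genome encodes only T or TA, and added adenosines complete the stop codon. The other 4 genes encode all 3 letters.

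A pair of members also share bases with a neighbour that lies in another reading frame, so reads over the shared stretch cannot be given to 1 gene alone. MT-ATP8 and MT-ATP6 share 46 bases and MT-ND4L and MT-ND4 share 7, shown here with the start codon of the downstream gene in capitals.
MT-ATP8 and MT-ATP6, chrM:8527-8572: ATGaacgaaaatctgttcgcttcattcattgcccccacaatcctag
MT-ND4L and MT-ND4, chrM:10760-10766: ATGctaa
MT-ATP6 and MT-CO3 overlap by 1 base. The strand setting of the counting is not given in the sources used here, so reads of MT-ND6, the light-strand gene that lies between MT-ND5 and MT-CYB, may include heavy-strand RNA.

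The MM1.S libraries held between 20461980 and 28419331 reads assigned to genes, and those of H929 between 15926867 and 22254348, so counting error was small: the 95% Wilson interval of the members' summed share was at most 0.0127 percentage points to either side, which covers counting error only. The ZBP1 levels of knockdown and scramble libraries did not overlap in any comparison, at 15.4 to 26.8 CPM in MM1.S knockdowns against 129 to 140 CPM in scramble, and at 69.2 to 129 CPM in H929 knockdowns against 194 to 268 CPM in scramble. All 8 plasma cell markers stood at 5 CPM or more in every group, though their summed level was 3690 to 5100 CPM in the MM1.S knockdowns against 6040 to 6630 CPM in scramble. In H929 it was 6240 to 6280 CPM with shRNA1 against 7100 to 7110 CPM in its scramble, and 6820 to 7010 CPM with shRNA2 against 7400 to 7570 CPM in its scramble. Of these 8 markers limma called 5 lower and 3 higher with shRNA1 in H929 (beside 27.7% and 25.7% of all genes). With shRNA2 it called 4 lower and 0 higher (beside 25.0% and 18.0%). In MM1.S edgeR called 5 lower and 1 higher with shRNA1 (beside 19.7% and 17.8%). All 8 were called lower there with shRNA2 (beside 21.7%). With the replicate block 6 were lower with shRNA1 (beside 30.9%). The part of these marker changes in the member values was not tested. FGFR3, which is switched on by a translocation in H929, stood at 0.147 to 0.739 CPM in MM1.S libraries and at 335 to 1160 CPM in H929 libraries. Copies of mitochondrial DNA in the nuclear genome can take reads of the members. Of 393 such annotated pseudogenes 179 had any read, and together they took 1.17 to 2.08 reads per 100 member reads. The most affected member was MT-ATP6, whose chromosome 1 copy MTATP6P1 held 9.31 to 13.0 reads per 100 MT-ATP6 reads, so its values are less certain than those of the others.

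Member mRNAs made up a large part of each library, and their share moved in opposite directions with the hairpins in H929. In H929 the 10 members together took 5.27% and 4.87% of reads with shRNA1, against 6.30% and 5.68% in its scramble. With shRNA2 they took 7.50% and 7.41%, against 6.15% and 5.89% in its scramble. Neither comparison had overlapping libraries. In MM1.S the members took 8.95% and 9.48% with shRNA1 and 8.82% and 9.50% with shRNA2, against 7.96% and 8.01% in scramble, so all 4 knockdown libraries stood above both controls. As group means these were 9.21% ± 0.374 (SD, n = 2) and 9.16% ± 0.480 (SD, n = 2) in the MM1.S knockdowns against 7.99% ± 0.0367 (SD, n = 2). The H929 means were 5.07% ± 0.284 with shRNA1 against 5.99% ± 0.435 in its scramble, and 7.45% ± 0.0645 with shRNA2 against 6.02% ± 0.181 in its scramble (SD, n = 2 each). A share moves with everything else in the library, so the scaled values per gene are given next. In bulk RNA, fewer cells that carry a transcript and less of it per cell cannot be told apart.

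**Figure D1:**
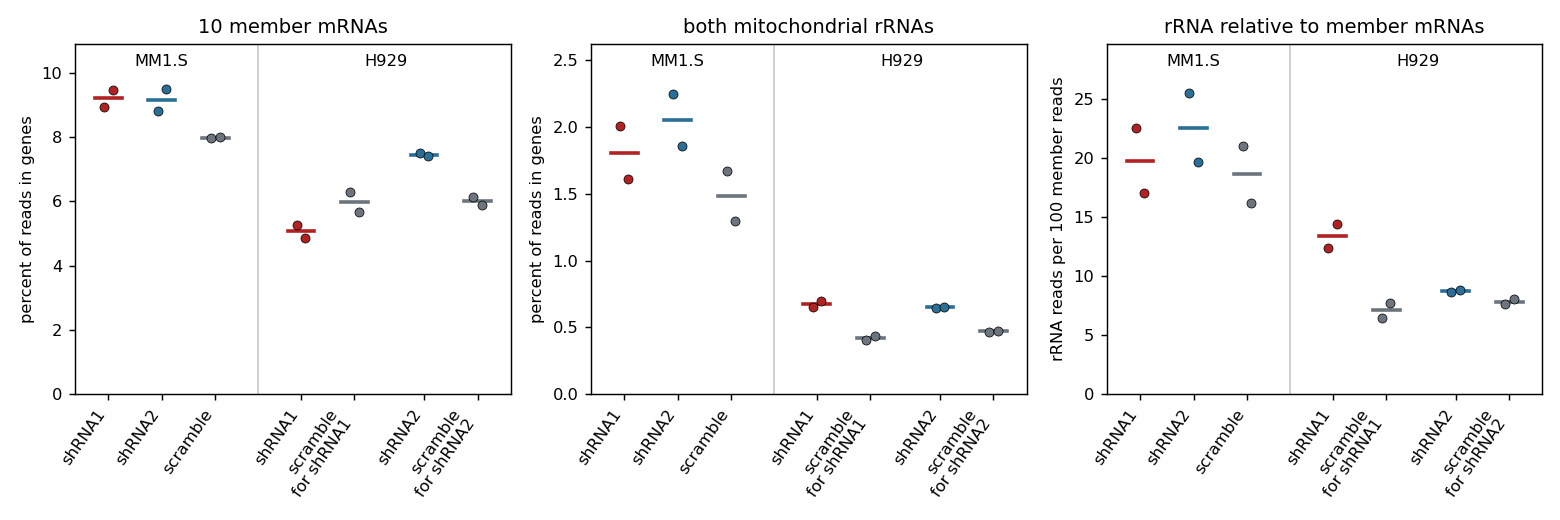
Reads of the 10 members (left) and of the 2 mitochondrial ribosomal RNAs (middle) as percent of reads in genes, and ribosomal RNA reads per 100 member reads (right), by group. Points are libraries and bars are group means; the H929 shRNA1 libraries are lowest for the members, at 4.87% and 5.27%, and above both of their scramble libraries for the ribosomal RNAs, at 0.653% and 0.701%.

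Levels differed widely between members cut from the same transcript. In RPKM, reads per kilobase of gene scaled to library depth, MT-CO1, the catalytic core of complex IV, led in MM1.S scramble at 15219 ± 808 (SD, n = 2), followed by MT-CO2, which carries the site that takes electrons from cytochrome c, at 12013 ± 609. MT-ATP6 (9964 ± 400), the proton channel subunit of ATP synthase, MT-ND4 (9407 ± 605), a proton-pumping subunit of complex I, and MT-CO3 (8974 ± 145) came next. The ranges of MT-ATP6 and MT-ND4 overlapped between libraries, and so did those of MT-ND4 and MT-CO3. MT-ND1, MT-ND2, MT-ND5, MT-CYB and MT-ND3 followed, between 5259 and 2311, and only MT-ND2 and MT-ND5 overlapped among these neighbours. MT-ND3, a small subunit of complex I, was the lowest member in both lines.

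The order was not the same in H929. Over its 4 scramble libraries MT-CO2 stood first at 10146 ± 716 RPKM (SD, n = 4), followed by MT-ATP6 at 9234 ± 895, MT-ND4 at 9098 ± 603, MT-CO1 at 8260 ± 569 and MT-CO3 at 7306 ± 404. Each of the first 4 overlapped the next in range. MT-CYB, the only mitochondrially encoded subunit of complex III, came next at 3586 ± 349 and overlapped MT-ND5 at 3441 ± 66.6. MT-ND1 (2622 ± 168) and MT-ND2 (2346 ± 224) also overlapped, and MT-ND3 was at 1588 ± 59.8. MT-CO1 thus had rank 1 in MM1.S and 4 in H929, and MT-CYB rank 9 in MM1.S and 6 in H929; the tables of the lines were made separately and the difference was not tested. The levels by group are shown gene by gene.

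**Figure D2:**
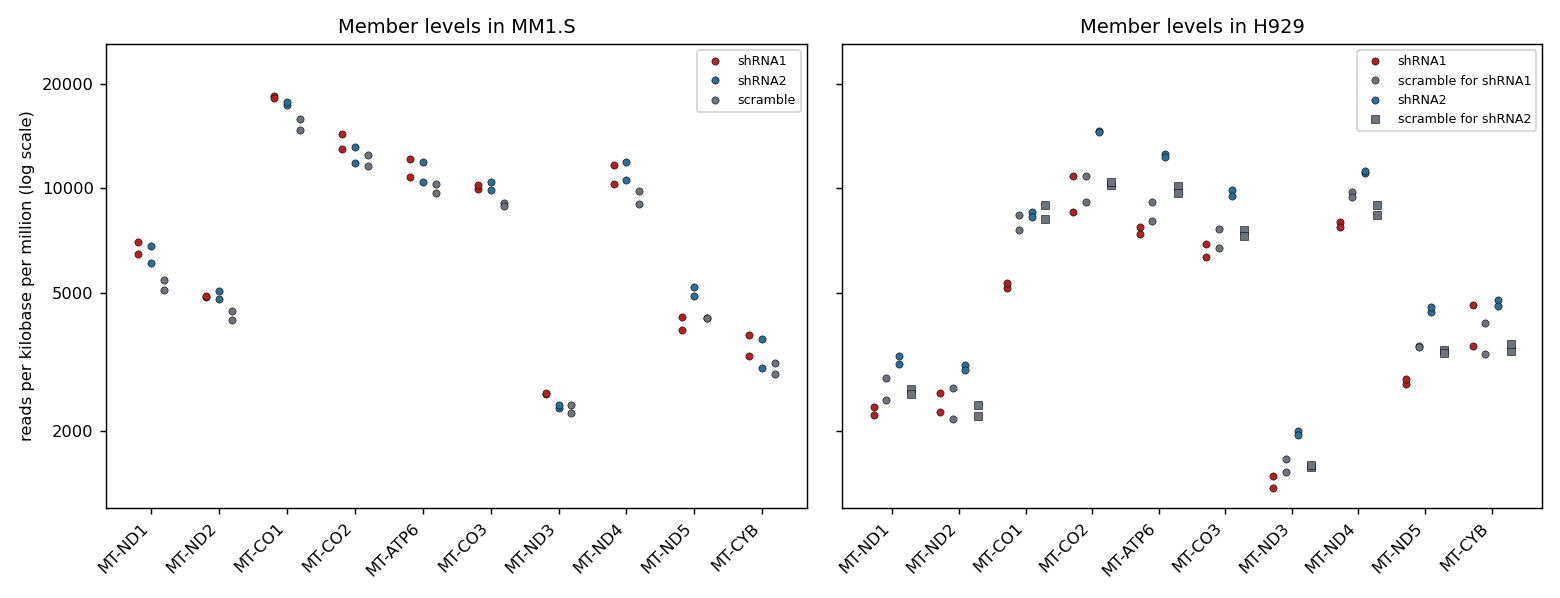
RPKM on a log axis for each member, in the order of the genes along the heavy-strand transcript, in MM1.S (left) and H929 (right). Each point is a library; MT-CO1 with shRNA1 in H929 sits at 5165 and 5318, under all 4 scramble libraries of that line, at 7565 to 8938.

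With shRNA1 in H929, 7 of the 10 members fell and none rose, against 27.7% of all 18213 genes tested that were called lower. Those 7 were MT-CO1, MT-ND5, MT-ND4, MT-ND1, MT-ATP6, MT-ND3 and MT-CO3, from complexes I, IV and V. In each of them both shRNA1 libraries lay below both scramble libraries. The share of all genes whose libraries stood apart in this way was not counted. The libraries of the H929 scramble groups stood apart from each other in 7 of the 10 members too. The log2 fold changes of the 10 members ran from -0.76 to -0.03 with a median of -0.33, beside a median of -0.01 over all genes. With scaling to library totals MT-ND2 and MT-CYB turned positive, at 0.01 and 0.13. Called members included 3 of the 4 with a complete stop codon and 4 of the 6 that need the poly(A) tail for it.

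The subunits of complex IV differed most from each other. MT-CO1 had 120674 and 120236 normalised counts with shRNA1, against 212498 and 196438 in scramble, which is 59.0% of the control level (log2 fold change -0.76 ± 0.12, limma adjusted p = 3.6e-05). MT-CO2, its neighbour, had 112142 and 85520 with shRNA1, against 121414 and 105250 in scramble, and these ranges overlapped (-0.21 ± 0.13, limma adjusted p = 0.199). MT-CO3, a core subunit that does not carry a metal centre, had 81986 and 72660 with shRNA1, against 98270 and 89004 in scramble (-0.28 ± 0.11, limma adjusted p = 0.0431).

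Of the complex I subunits 4 of 5 fell. MT-ND5, the last pumping subunit of the membrane arm, had 75027 and 74870 normalised counts with shRNA1, against 104171 and 106527 in scramble (-0.49 ± 0.10, limma adjusted p = 7.1e-04). MT-ND4 had 167202 and 155885 with shRNA1, against 220304 and 218121 in scramble (-0.44 ± 0.12, limma adjusted p = 0.00409). In both genes the replicates of a group lay much closer together than the groups did. MT-ND1, which forms part of the ubiquinone site, had 33858 and 31082 with shRNA1, against 44648 and 39388 in scramble (-0.37 ± 0.10, limma adjusted p = 0.00505). MT-ND3 had 7758 and 6946 with shRNA1, against 9444 and 8840 in scramble (-0.32 ± 0.09, limma adjusted p = 0.00572). MT-ND2, a further pumping subunit, had 40510 and 34633 with shRNA1, against 45416 and 37822 in scramble, and was not called (-0.15 ± 0.11, limma adjusted p = 0.283).

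MT-ATP6 had 79659 and 73574 normalised counts with shRNA1, against 102093 and 92190 in scramble (-0.34 ± 0.11, limma adjusted p = 0.0137). MT-CYB had 79818 and 58511 with shRNA1, against 76674 and 63710 in scramble (-0.03 ± 0.14, limma adjusted p = 0.858). The spread of MT-CYB between the shRNA1 libraries was larger than that between groups, with replicate 1 above both controls and replicate 2 below both.

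The count of 7 rested in part on 1 control library and on the scaling. Without replicate 1 of the scramble, the library with the higher member share in that group, 3 members were lower and MT-ND1 (-0.28, limma adjusted p = 0.0698), MT-ND3 (-0.27, limma adjusted p = 0.0522), MT-ATP6 (-0.27, limma adjusted p = 0.12) and MT-CO3 (-0.21, limma adjusted p = 0.242) no longer passed. Without shRNA1 replicate 2, MT-ATP6 (-0.28, limma adjusted p = 0.0623) and MT-CO3 (-0.19, limma adjusted p = 0.209) did not pass. Scaling to library totals, which raised the median of all genes to 0.15 and gave 6094 higher and 3949 lower genes in place of 4685 and 5044, left 3 lower members beside 21.1% of all genes, while the members' median stayed 0.32 below that of all genes under either scaling. MT-CO1, MT-ND4 and MT-ND5 were called lower in all 9 alternatives and all 4 fits without a library. In the authors' deposited table the same comparison listed 7 members lower and 0 higher.

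Other RNAs moved in these shRNA1 libraries as well. The nuclear-retained RNAs MALAT1 and NEAT1 together stood at 9270 to 10900 CPM with shRNA1, against 2680 to 2940 CPM in scramble, and MALAT1 rose by 1.92 ± 0.10 on the log2 scale (limma adjusted p = 2.9e-10). Of the 3 markers of fibroblasts and epithelium 1 was present, COL1A1, at 34.8 and 29.4 CPM with shRNA1 against 1.07 and 0.860 CPM in scramble. The other fibroblast marker COL1A2 was at 0 in scramble and at most 0.109 CPM with shRNA1, and EPCAM was at most 0.115 CPM. Whether any of these is tied to the member values was not tested.

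**Figure D3:**
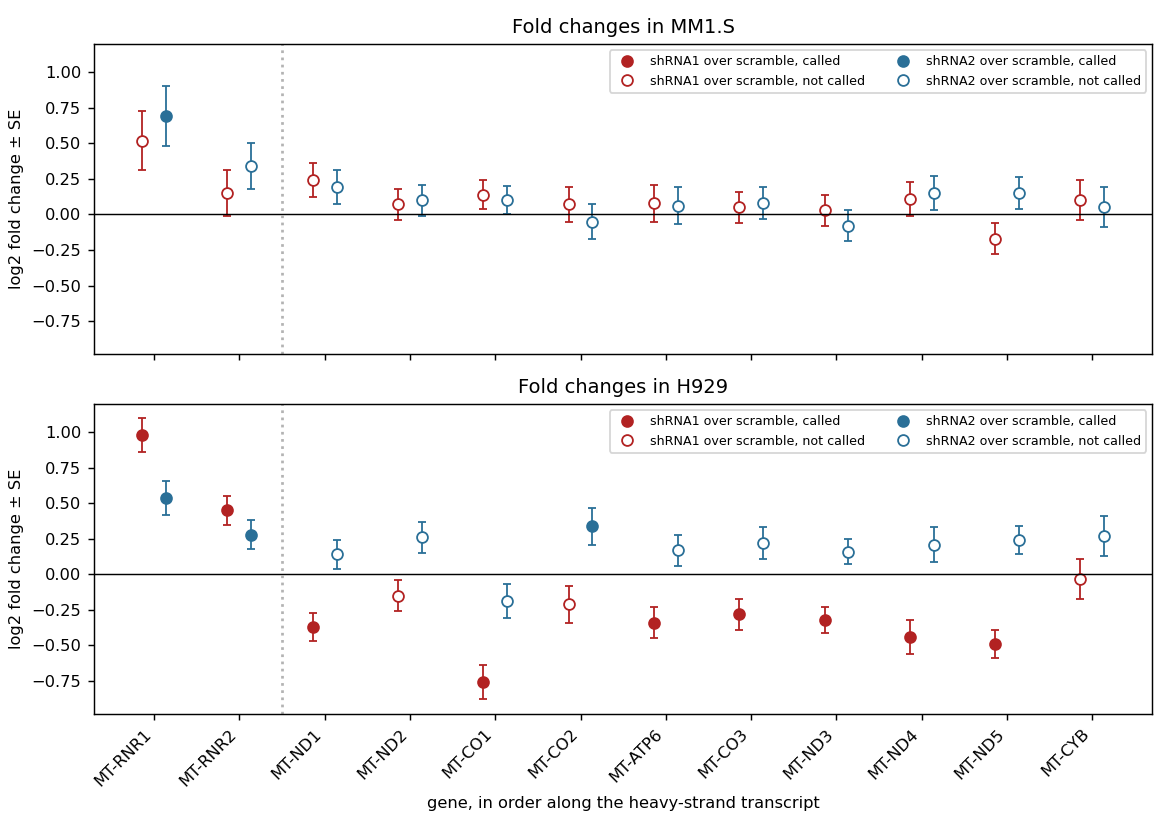
Log2 fold change of hairpin over scramble, with standard error bars, for the 2 ribosomal RNAs (left of the dotted line) and the 10 members, in order along the heavy-strand transcript, in MM1.S (top) and H929 (bottom). Filled points passed the adjusted p threshold; with shRNA1 in H929 the ribosomal RNAs are above 0 and 7 members are filled and below 0.

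With shRNA2 in H929, 1 of the 10 members was called higher and 0 lower, against 18.0% and 25.0% of all genes. That member was MT-CO2, with 163002 and 159527 normalised counts with shRNA2 against 124026 and 131166 in scramble (0.34 ± 0.13, limma adjusted p = 0.0483). In 9 of the 10 members, MT-CO2 included, both shRNA2 libraries lay above both scramble libraries, and 3 had an unadjusted p under 0.05. How many of all genes had libraries apart in this way was not counted. Between the H929 scramble groups, neither of which carried a ZBP1 hairpin, 7 of the 10 members also stood apart. The median log2 fold change was 0.22, beside -0.02 over all genes.

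The exception was again MT-CO1, which had 214784 and 203577 normalised counts with shRNA2, below the 244734 and 231061 of its scramble (-0.19 ± 0.12, limma adjusted p = 0.207). MT-ND2 (0.26 ± 0.11, limma adjusted p = 0.0722) and MT-ND5 (0.24 ± 0.10, limma adjusted p = 0.0709) lay just outside the threshold. MT-CYB had 88595 and 83568 with shRNA2, against 68730 and 74398 in scramble (0.27 ± 0.14, limma adjusted p = 0.126). The other 5 members had log2 fold changes of 0.14 to 0.22.

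The number called depended on the method. It was 9 with library-total scaling, beside 27.0% of all genes, 6 with edgeR on the read counts recovered from the table, beside 20.2% of all genes, and 0 when any 1 of the 4 libraries of the comparison was left out, where MT-CO2 had log2 fold changes of 0.30 to 0.38 and limma adjusted p of 0.0909 to 0.205. Library-total scaling raised the median of all genes to 0.14 and gave 5051 higher and 3336 lower genes in place of 3274 and 4551, and the members stayed 0.24 above that median, against 0.23. The authors' deposited table listed 5 members higher and 0 lower. NEAT1 rose in these libraries by 0.63 ± 0.12 on the log2 scale (limma adjusted p = 5.8e-04). Of the 3 T cell markers only CD3E reached 5 CPM in H929, at 31.2 and 24.0 CPM with shRNA2 against 7.60 and 6.83 CPM in scramble, while CD3D was at 0 in all 4 of these libraries and CD2 at most 0.103 CPM. The part of these in the member values was not tested.

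The effects of the hairpins on the members differed in H929. The shRNA2 effect minus the shRNA1 effect, each against its own scramble, was called higher for 9 of 10 members and lower for 0, against 20.0% of all genes called higher. The differences ran from 0.30 to 0.73 with a median of 0.51, beside 0.02 over all genes. MT-ND5 had the largest, at 0.73 ± 0.14 (limma adjusted p = 7.2e-04), followed by MT-ND4 at 0.65 ± 0.16 (limma adjusted p = 0.00442) and MT-CO1 at 0.58 ± 0.16 (limma adjusted p = 0.00945). MT-CYB was the member not called, at 0.30 ± 0.19 (limma adjusted p = 0.23). The count fell to 3 without shRNA2 replicate 1 and to 5 without shRNA2 replicate 2 or without replicate 1 of the scramble for shRNA1. MT-ND3, MT-ND4 and MT-ND5 were called in all 8 such fits.

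The H929 scramble groups differed from each other in many genes and in 1 member. MT-ATP6 was the 1 member called higher in the scramble for shRNA2, against 16.8% of all genes. It had 122403 and 120823 normalised counts in the scramble for shRNA2, against 102093 and 92190 in the scramble for shRNA1 (0.33 ± 0.11, limma adjusted p = 0.0315). This call was lost without replicate 2 of the scramble for shRNA1 or without either scramble library for shRNA2. The log2 fold changes without them were 0.25 to 0.34, with limma adjusted p of 0.0725 to 0.22. The median over the members was 0.11, beside 0.02 over all genes. In 7 of the 10 members both libraries of the scramble for shRNA2 lay above both of the scramble for shRNA1. Library-total scaling lowered the median of all genes to -0.10, gave 1905 higher and 3536 lower genes in place of 3061 and 2380, called 0 members (beside 10.2% of all genes higher and 18.9% lower) and put their median at -0.01. FGFR3 stood at 441 and 483 CPM in the scramble for shRNA2, against 1150 and 1160 CPM in the scramble for shRNA1, so each hairpin was read against its own scramble only.

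In MM1.S 0 of 10 members were called by edgeR with either hairpin, 0 had an unadjusted p under 0.05, and DESeq2 called 0. For shRNA1, 17.8% of all genes were called higher and 19.7% lower. For shRNA2 these shares were 14.9% (higher) and 21.7% (lower). The hairpins share their scramble libraries, so their values are given side by side. The log2 fold changes ran from -0.17 to 0.24 with shRNA1 and from -0.08 to 0.19 with shRNA2, with medians of 0.08 and 0.09 beside 0.00 and -0.03 over all genes. Scaling to library totals raised the median of all genes to 0.12 with shRNA1, with 3954 higher and 2831 lower genes in place of 3173 and 3516, and called 2 members higher, beside 22.2% of all genes. Relative to that median the members stayed at 0.07. With shRNA2 it called 0 members, beside 19.0% of all genes called higher. The authors' deposited tables gave 1 member as higher and 1 as lower for shRNA1, and 3 as higher for shRNA2.

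MT-ND1 moved most. It had 5954 and 6572 CPM with shRNA1 and 5570 and 6495 CPM with shRNA2, against 5166 and 5428 CPM in scramble, so all 4 knockdown libraries lay above both controls (0.24 ± 0.12 with shRNA1, edgeR adjusted p = 0.148, and 0.19 ± 0.12 with shRNA2, edgeR adjusted p = 0.253). In a fit that blocks on replicate number, in which 28.4% of all genes were called higher and 30.9% lower with shRNA1, MT-ND1 passed with shRNA1 at 0.24 (edgeR adjusted p = 0.0189). It was the 1 member that did, and its adjusted p ran from 0.0189 to 0.255 over 7 alternatives. MT-CO1 had 27295 and 27391 CPM with shRNA1 and 25702 and 27226 CPM with shRNA2, against 25957 and 23537 CPM in scramble. Its log2 fold changes were 0.14 ± 0.10 and 0.10 ± 0.10, where H929 gave -0.76 and -0.19.

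MT-ND5 was the member in which the MM1.S hairpins stood furthest apart. It had 6809 and 7559 CPM with shRNA1 and 8511 and 9423 CPM with shRNA2, against 8175 and 7968 CPM in scramble. Both shRNA1 libraries lay below both controls and both shRNA2 libraries above them, and neither difference from scramble passed (-0.17 ± 0.11, edgeR adjusted p = 0.264, and 0.15 ± 0.11, edgeR adjusted p = 0.315). Compared directly, shRNA2 over shRNA1 gave 0.32 ± 0.11 (edgeR adjusted p = 0.0543), with 0 members called in this comparison, 1 at an unadjusted p under 0.05, against 16.4% of all genes called higher and 20.4% lower. With the replicate block, where 28.7% of all genes were called higher and 29.6% lower, MT-ND5 passed at 0.32 (edgeR adjusted p = 0.00642, range 0.00642 to 0.0666 over 7 alternatives). MT-ND6, which is encoded on the light strand directly after MT-ND5, was called higher in the same comparison, at 0.39 ± 0.13 (edgeR adjusted p = 0.0467). Leaving out any 1 of the 4 libraries ended that call, with values of 0.27 to 0.51 and edgeR adjusted p of 0.059 to 0.295.

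The shRNA1 effect differed between the lines in 2 of 10 members, against 10.5% of all genes called higher. The effect in MM1.S minus that in H929 was 0.91 ± 0.19 for MT-CO1 (limma adjusted p = 0.00486) and 0.61 ± 0.17 for MT-ND1 (limma adjusted p = 0.0216). The other 8 members had differences of 0.13 to 0.54 that did not pass. MT-CO1 passed without each of the 8 libraries in turn. MT-ND1 did not pass without MM1.S shRNA1 replicate 2 (0.54, limma adjusted p = 0.0654), H929 shRNA1 replicate 2 (0.55, limma adjusted p = 0.071) or replicate 1 of the H929 scramble for shRNA1 (0.52, limma adjusted p = 0.0892), which left 1 member. With the replicate block 5 members passed, beside 15.1% of all genes. For shRNA2, 0 members passed, by limma and by edgeR, and 0 had an unadjusted p under 0.05, against 4.38% of all genes called higher and 5.46% lower. Those differences ran from -0.37 to 0.30. Over all genes, 886 were called higher and 1106 lower in this comparison, and 678 higher and 1321 lower with library-total scaling. The replicate block gave 0 members, beside 9.56% of all genes higher and 9.52% lower.

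Within the member reads, MT-CO1 took a smaller share with both hairpins in H929, with no overlap between libraries. It made up 15.1% and 16.8% of member reads with shRNA1, against 20.5% and 20.5% in its scramble. With shRNA2 it made up 17.5% and 17.1%, against 22.4% and 21.3% in its scramble. In MM1.S its share was 31.7% and 29.5% with shRNA1 and 30.3% and 28.6% with shRNA2, against 30.6% and 28.2% in scramble, with overlap. Within replicate numbers, which pair the MM1.S libraries, 3 of the 4 knockdown shares were above their control and shRNA2 replicate 1 was below it. The H929 scramble groups stood apart in the MT-CO1 share as well, at 20.5% in both libraries for shRNA1 against 22.4% and 21.3% for shRNA2. These shares are a description, with no test.

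With both hairpins in H929, 5 of the other 9 members (MT-CO2, MT-ND2, MT-CYB, MT-CO3 and MT-ATP6) took larger shares in the knockdown libraries than in their scramble libraries. Shares within a library have a fixed sum, so a smaller MT-CO1 share by itself makes the summed share of the other 9 larger. Per gene, the log2 fold changes of these 5 were -0.34 to -0.03 with shRNA1, where MT-CO3 and MT-ATP6 were called lower. With shRNA2 they were 0.17 to 0.34. MT-CO2 made up 14% and 12% with shRNA1 against 11.7% and 11% in its scramble, and 13.3% and 13.4% with shRNA2 against 11.4% and 12.1%. MT-ND2 made up 5.07% and 4.85% with shRNA1 against 4.39% and 3.95%, and 4.31% and 4.21% with shRNA2 against 4.01% and 3.90%. MT-CYB made up 9.99% and 8.20% with shRNA1, against 7.41% and 6.66% in its scramble, and with shRNA2 7.22% and 7.04% against 6.30% and 6.87%. MT-CO3 made up 10.3% and 10.2% with shRNA1 against 9.50% and 9.30%, and at least 10% with shRNA2 against at most 9.70%. Among these 5 the differences were smallest for MT-ATP6, at 9.97% and 10.3% with shRNA1 against 9.86% and 9.63%, and 11.4% and 11.3% with shRNA2 against 11.2% in both libraries of its scramble. In the MT-ATP6 share the scramble groups differed more from each other than either hairpin did from its scramble. Per 100 MT-CYB reads, MT-CO1 had 151 and 205 reads with shRNA1 against 277 and 308 in its scramble, and 242 and 244 with shRNA2 against 356 and 311. In MM1.S the same ratio in the replicate 1 libraries was 756 with shRNA1 and 771 with shRNA2, against 731 in scramble. In the replicate 2 libraries it was 649 with shRNA1 and 650 with shRNA2, against 630 in scramble. Paired by number, all 4 MM1.S knockdown libraries were above their control, whereas all 4 H929 knockdown libraries were below both of theirs.

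**Figure D4:**
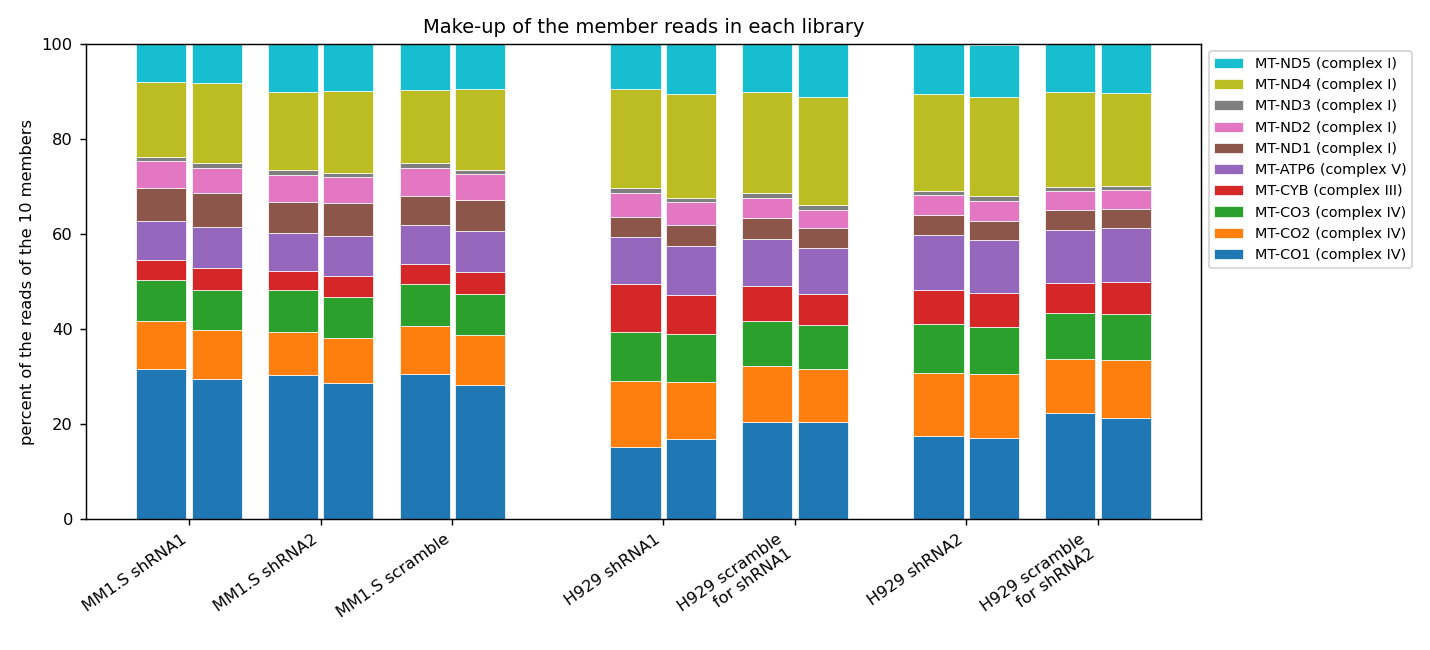
Percent of the summed reads of the 10 members that falls to each member, 1 bar per library, replicates 1 and 2 side by side. In H929 the MT-CO1 segment is shorter in both shRNA1 bars, at 15.1% and 16.8%, than in their scramble bars, at 20.5%.

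The ribosomal RNAs, which are read from the same strand ahead of the members, rose with both hairpins in H929, against the direction of the members with shRNA1 and in their direction with shRNA2. With shRNA1, MT-RNR1, the RNA of the small subunit of the mitochondrial ribosome, had 13795 and 18376 normalised counts against 7260 and 8980 in scramble (0.98 ± 0.12, limma adjusted p = 5.3e-06). MT-RNR2, that of the large subunit, had 85099 and 84380 against 59810 and 64740 (0.45 ± 0.10, limma adjusted p = 0.00139). Both rose while 7 members fell in the same libraries, and per 100 member reads there were 12.4 and 14.4 ribosomal RNA reads with shRNA1 against 6.48 and 7.70 in scramble. With shRNA2, MT-RNR1 rose by 0.54 ± 0.12 on the log2 scale (limma adjusted p = 0.00225) and MT-RNR2 by 0.28 ± 0.10 (limma adjusted p = 0.0327). The MT-RNR2 call was lost without either shRNA2 library or without scramble replicate 1, at 0.25 to 0.28 with limma adjusted p of 0.0983 to 0.173. There the ratio was 8.60 and 8.85 per 100 member reads with shRNA2, against 7.59 and 8.04 in scramble. Between the H929 scramble groups MT-RNR2 differed as much as with shRNA2. It was higher in the scramble for shRNA2, by 0.29 ± 0.10 (limma adjusted p = 0.0398), a call also lost when a library was left out. MT-RNR1 was not called between them (0.14 ± 0.12, limma adjusted p = 0.416). Mitochondrial ribosomal RNAs carry short 3′ adenine tails, so poly(A) selection may recover them in part; how recovery varied between libraries was not tested.

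In MM1.S, MT-RNR1 had 1313 and 1022 CPM with shRNA1 and 1527 and 1102 CPM with shRNA2, against 920.7 and 709.0 CPM in scramble. It was called with shRNA2 (0.69 ± 0.21, edgeR adjusted p = 0.0324) and not with shRNA1 (0.52 ± 0.21, edgeR adjusted p = 0.0812). The call with shRNA2 was lost without scramble replicate 2 (0.51, edgeR adjusted p = 0.109) and without shRNA2 replicate 1 (0.44, edgeR adjusted p = 0.209). With the replicate block MT-RNR1 passed with shRNA1 too, at 0.52 (edgeR adjusted p = 3.5e-05), and MT-RNR2 passed with shRNA2, at 0.35 (edgeR adjusted p = 0.00514), where the fit without the block gave 0.34 ± 0.16 (edgeR adjusted p = 0.135). The calls of MT-RNR1 with shRNA1 and of MT-RNR2 with shRNA2 had adjusted p of 3.5e-05 to 0.0801 and 0.00514 to 0.122 over 7 alternatives. All 3 replicate 1 libraries of MM1.S had more ribosomal RNA per 100 member reads, at 22.5 with shRNA1, 25.5 with shRNA2 and 21 in scramble, than the replicate 2 libraries, at 17.0 with shRNA1, 19.6 with shRNA2 and 16.2 in scramble. Within each replicate number the knockdown libraries stood above their control.

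The 3 remaining protein-coding genes of the mitochondrial genome went with the members in H929. With shRNA1 all of them fell, MT-ND6 by 0.57 ± 0.09 on the log2 scale (limma adjusted p = 7.8e-05), MT-ND4L (-0.39 ± 0.09, limma adjusted p = 0.00106) and MT-ATP8 (-0.38 ± 0.09, limma adjusted p = 0.00264). With shRNA2, MT-ND6 (0.36 ± 0.09, limma adjusted p = 0.00517) and MT-ATP8 (0.25 ± 0.09, limma adjusted p = 0.0389) rose and MT-ND4L did not pass (0.06 ± 0.09, limma adjusted p = 0.621). The MT-ATP8 call was lost without any 1 of the 4 libraries (0.21 to 0.30, limma adjusted p of 0.0556 to 0.261), and that of MT-ND6 without shRNA2 replicate 1 (0.34, limma adjusted p = 0.0716). Between the H929 scramble groups MT-ATP8 was higher in the scramble for shRNA2, by 0.29 ± 0.09 (limma adjusted p = 0.0272). This was no smaller than its difference with shRNA2. MT-ND6 and MT-ND4L were not called between the scramble groups. MT-ND6 stood at 29.4 to 32.6 reads per 100 MT-ND5 reads in the 6 MM1.S libraries and at 35.1 or more in all 8 H929 libraries. MT-ND6 mRNA is known to lack a poly(A) tail, and whether its reads came from the light or the heavy strand could not be told.

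Nuclear genes for subunits of the same complexes were read beside the members. With shRNA1 in MM1.S, 48 of 73 nuclear subunit genes of complexes I, III, IV and V (65.8%, beside 19.7% of all genes) fell and 1 rose, with a median of -0.60, while 0 of the 10 members was called. With shRNA1 in H929, 60 of 73 (82.2%, beside 27.7% of all genes) fell and 0 rose, with a median of -0.63, beside the members' -0.33. With shRNA2 in MM1.S the nuclear median was 0.02, with 9 higher (12.3%, beside 14.9% of all genes) and 8 lower (11%, beside 21.7%). With shRNA2 in H929 it was 0.08, with 14 higher (19.2%, beside 18.0%) and 7 lower (9.59%, beside 25.0%). The replicate block in MM1.S called 65 lower and 3 higher with shRNA1, beside 30.9% of all genes lower and 28.4% higher. With shRNA2 it called 22 lower and 26 higher, beside 32.0% of all genes lower and 26.8% higher.

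By complex, the shRNA1 falls in MM1.S covered 22 of 37 genes of complex I (59.5%) and 7 of 9 of complex III (77.8%). They covered 7 of 11 of complex IV (63.6%) and 12 of 16 of complex V (75.0%), beside 19.7% of all genes. With the replicate block these counts were 31, 9, 10 and 15, beside 30.9% of all genes. In H929 the falls covered 26 of 37, 8 of 9, 11 of 11 and 15 of 16 (70.3%, 88.9%, 100% and 93.8%), beside 27.7% of all genes. ATP5G1, which encodes the ring subunit that turns against MT-ATP6, was lower in MM1.S, at -1.49 ± 0.16 on the log2 scale for shRNA1 (edgeR adjusted p = 3.6e-04) and -0.81 ± 0.16 for shRNA2 (edgeR adjusted p = 0.00548). Its H929 values were -0.93 ± 0.13 for shRNA1 (limma adjusted p = 1.2e-05) and -0.40 ± 0.13 for shRNA2 (limma adjusted p = 0.0169). COX5A and COX6C, structural subunits around the MT-CO1 core, fell with both hairpins in MM1.S, by 0.82 ± 0.12 and 0.63 ± 0.13 with shRNA1 (edgeR adjusted p = 0.00138 and 0.00712). With shRNA2 they fell by 0.42 ± 0.12 and 0.50 ± 0.13 (edgeR adjusted p = 0.0239 and 0.0198). These were the 2 of 11 complex IV genes called lower with shRNA2 there (18.2%, beside 21.7% of all genes). In that list 1 was called higher (9.09%, beside 14.9%) and the median was 0.05. With the replicate block 3 were lower and 5 higher (beside 32.0% and 26.8%). UQCRH, which works beside MT-CYB in complex III, was lower in H929, at -1.26 ± 0.09 for shRNA1 (limma adjusted p = 9.4e-09) and -0.33 ± 0.09 for shRNA2 (limma adjusted p = 0.00685). UQCRH was the 1 gene of 9 in complex III called lower with shRNA2 in H929, where UQCRB (0.59, limma adjusted p = 3.2e-05) and UQCRFS1 (0.33, limma adjusted p = 0.00573) were called higher; these 2 genes were named after their values were seen. Both were also called higher with shRNA2 in MM1.S, at 0.46 (edgeR adjusted p = 0.0257) and 0.44 (edgeR adjusted p = 0.025).

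**Figure D5:**
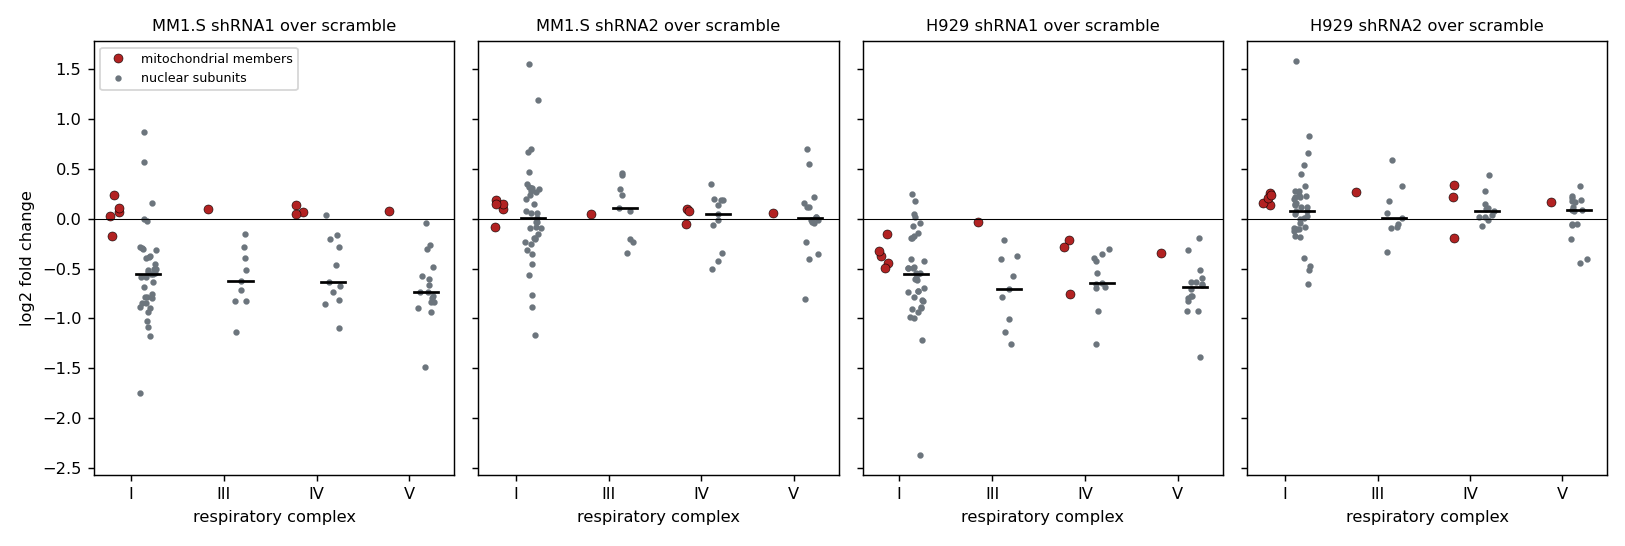
Log2 fold change of mitochondrial members (large points) and of nuclear subunit genes (small points, black bar at their median) of complexes I, III, IV and V in each hairpin comparison. With shRNA1 the nuclear medians of all 4 complexes lie at or below -0.55 in both lines, and the members lie at or above -0.17 in MM1.S and at or above -0.76 in H929.

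Of 41 listed genes that express and maintain mitochondrial DNA (transcription, RNA processing, RNA decay and DNA replication), more were called lower than higher in each comparison, and most did not pass in 3 of the 4. With shRNA1 in MM1.S, 17 fell (41.5%, beside 19.7% of all genes) and 2 rose (4.88%, beside 17.8%), with a median of -0.41. With shRNA2 in MM1.S, 6 fell (14.6%, beside 21.7%) and 2 rose (4.88%, beside 14.9%), with a median of -0.18, so both shares were under those of all genes. The replicate block gave 30 lower and 3 higher with shRNA1, beside 30.9% and 28.4% of all genes, and 18 lower and 8 higher with shRNA2, beside 32.0% and 26.8%. In H929, 21 of 40 tested fell with shRNA1 (52.5%, beside 27.7%) and 3 rose (7.50%, beside 25.7%), with a median of -0.30. With shRNA2 there, 14 fell (35%, beside 25.0%) and 3 rose (7.50%, beside 18.0%), with a median of -0.20. The lists were chosen with earlier results of these data known.

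TFAM, which packages mitochondrial DNA and opens its promoters, fell in all 4 comparisons. Its log2 fold changes in MM1.S were -1.10 ± 0.16 for shRNA1 (edgeR adjusted p = 0.00162) and -0.78 ± 0.16 for shRNA2 (edgeR adjusted p = 0.0078). Those in H929 were -1.11 ± 0.12 for shRNA1 (limma adjusted p = 8.9e-07) and -0.53 ± 0.12 for shRNA2 (limma adjusted p = 0.00181). Members were called lower in 1 of these 4 comparisons, that of shRNA1 in H929. Whether TFAM is tied to the member values was not tested.

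Of 16 listed RNA processing genes, 6 fell with shRNA1 in MM1.S (37.5%, beside 19.7% of all genes). With shRNA2 1 fell there (6.25%, beside 21.7%), which is under the share of all genes. In H929 7 fell with each hairpin (43.8%, beside 27.7% with shRNA1 and 25.0% with shRNA2). With shRNA2 1 rose (6.25%, beside 18.0%). The replicate block in MM1.S called 13 lower with shRNA1 (beside 30.9%), and 6 lower and 2 higher with shRNA2 (beside 32.0% and 26.8%). Of 3 RNA decay genes, 2 fell with shRNA1 and 1 with shRNA2 in MM1.S (66.7% and 33.3%, beside 19.7% and 21.7% of all genes). In H929 3 fell with shRNA1 and 1 with shRNA2 (100% and 33.3%, beside 27.7% and 25.0%). The replicate block in MM1.S called 3 decay genes lower with shRNA1 and 2 with shRNA2 (beside 30.9% and 32.0%). Those named here are genes called the same way with both hairpins of a line. PDE12, which removes poly(A) from mitochondrial RNA, was lower in H929, at -1.66 ± 0.09 on the log2 scale for shRNA1 (limma adjusted p = 4.3e-10) and -0.34 ± 0.09 for shRNA2 (limma adjusted p = 0.00586). PNPT1, the mitochondrial polynucleotide phosphorylase, had -1.16 ± 0.13 for shRNA1 (limma adjusted p = 1.1e-06) and -0.39 ± 0.13 for shRNA2 (limma adjusted p = 0.0194). ELAC2, which cuts the transcript at the 3′ ends of transfer RNAs, had -0.51 ± 0.09 for shRNA1 (limma adjusted p = 2.6e-04) and -0.55 ± 0.09 for shRNA2 (limma adjusted p = 2.0e-04). In MM1.S, REXO2, which degrades short RNA oligomers, had -0.67 ± 0.13 for shRNA1 (edgeR adjusted p = 0.00542) and -0.96 ± 0.13 for shRNA2 (edgeR adjusted p = 0.00112).

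In the replication list of 13 genes both directions occurred. In MM1.S 4 fell with shRNA1 and 3 with shRNA2 (30.8% and 23.1%, beside 19.7% and 21.7% of all genes). In H929 9 fell with shRNA1 and 5 with shRNA2 (69.2% and 38.5%, beside 27.7% and 25.0%). In each comparison 2 rose (15.4%, beside 14.9% to 25.7%). The replicate block in MM1.S called 8 lower and 3 higher with shRNA1 (beside 30.9% and 28.4%). With shRNA2 it called 6 lower and 5 higher (beside 32.0% and 26.8%). The nuclease and helicase gene DNA2 was lower in all 4 comparisons, with log2 fold changes of -1.71 ± 0.17 (shRNA1) and -1.01 ± 0.16 (shRNA2) in MM1.S (edgeR adjusted p = 2.5e-04 and 0.00258) and -1.76 ± 0.18 (shRNA1) and -1.15 ± 0.18 (shRNA2) in H929 (limma adjusted p = 5.5e-07 and 8.9e-05). TK2 and RRM2B, which supply deoxynucleotides to mitochondria outside S phase, rose in all 4. With shRNA1 and shRNA2, TK2 rose by 1.31 ± 0.15 and 1.02 ± 0.15 in MM1.S (edgeR adjusted p = 4.6e-04 and 0.00146) and by 0.62 ± 0.11 and 0.66 ± 0.11 in H929 (limma adjusted p = 1.5e-04 and 1.3e-04). RRM2B rose by 1.21 ± 0.16 and 0.94 ± 0.16 in MM1.S (edgeR adjusted p = 8.4e-04 and 0.00274). In H929 RRM2B rose by 0.24 ± 0.09 with shRNA1, just inside the threshold, and 0.55 ± 0.09 with shRNA2 (limma adjusted p = 0.0431 and 2.1e-04). In the list of biogenesis regulators, PPARGC1A fell in MM1.S by 0.52 ± 0.16 with shRNA1 (edgeR adjusted p = 0.0371) and 1.17 ± 0.16 with shRNA2 (edgeR adjusted p = 0.00133), and its relative PPRC1 was lower in H929, at -0.42 ± 0.10 for shRNA1 (limma adjusted p = 0.00194) and -0.55 ± 0.10 for shRNA2 (limma adjusted p = 2.9e-04). Of the 7 listed genes 1 was called higher in each comparison (14.3%, beside 14.9% to 25.7% of all genes). In MM1.S 3 were lower with shRNA1 (42.9%, beside 19.7%) and 1 with shRNA2 (14.3%, beside 21.7%). In H929 2 were lower with shRNA1 (28.6%, beside 27.7%) and 3 with shRNA2 (42.9%, beside 25.0%). The replicate block in MM1.S gave 4 lower with each hairpin (beside 30.9% and 32.0%). It gave 1 higher with shRNA1 and 2 with shRNA2 (beside 28.4% and 26.8%).

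Members followed each other unevenly across the libraries of a line. Each member was set against the mean log2 CPM of the other members. Pearson's r over the 8 H929 libraries was 0.919 or more for 7 members, 0.826 for MT-ND2, 0.595 for MT-CO1 and 0.572 for MT-CYB. Over the 6 MM1.S libraries it was lowest for MT-ND5, at 0.256, and MT-ND3, at 0.526. The values share libraries and depth, so they only describe. Nuclear genes at 10 CPM or more in each line, 8495 in number, were set against the mean log2 CPM of all members. The 5 with the highest mean r over both lines were LINC00094 (0.938), PSKH1 (0.930), SUMF1 (0.925), MRPS21 (0.919) and SAFB2 (0.914).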

How the data were processed

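RNA of 14 libraries was sequenced in 7 groups of 2. Per the submitters' processing notes, STAR 2.5.3a, DESeq2 1.24.0 and the builds GRCh38 and hg38 were used; the counting tool, annotation and strand setting are not given in the sources used here. In the deposited table for MM1.S the values are unscaled counts of reads for each gene. The deposited H929 table is named as raw counts too, but its values are a signal, counts divided by 1 size factor per library: 100.0% of values became whole reads within 0.01 once multiplied by that factor, and its shares and reads per kilobase come from these recovered reads. The authors' deposited comparison tables give a log2 fold change and an adjusted p-value per gene. Columns of shRNA2 carry another hairpin number in their names and were assigned by elimination, as was replicate 2 of the H929 scramble for shRNA1. Of the 58069 entries of each table, 18 repeated identifiers were left out.

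MM1.S counts were tested with edgeR 4.0.16 (quasi-likelihood, TMM, filterByExpr with a minimum count of 10). H929 values and the differences between lines were tested with limma 3.58.1 (trend) on log2(value + 1), for genes that reached 10 in 2 or more libraries, so fold changes of low genes are understated. Each fit covered all libraries of its table, or all 14 for the difference between lines, in which MM1.S counts were divided by median-of-ratios size factors. Standard errors are those of the fits, and p-values were Benjamini-Hochberg adjusted over all genes tested. MM1.S values are CPM after TMM scaling, H929 values the deposited normalised counts; shares, CPM of marker genes and levels per kilobase use library totals. R 4.3.3, DESeq2 1.42.0, Python 3.11.15, pandas 2.3.3, numpy 2.4.6 and matplotlib 3.10.9 were also used. The fits were tested on simulated data.

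Same-numbered MM1.S libraries deviated together from their group means (r of 0.702 to 0.854 over 9299 genes), so the replicate number pairs them, on the evidence of the data. Blocked counts are given with the counts of members and listed genes that they change, and not with every value of a single gene. Replicates differed beyond sampling noise in every group, with a chi-square per degree of freedom of 2.36 to 30.3.

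The genes named are the members, the other protein-coding and ribosomal RNA genes of chromosome MT, ZBP1, the marker genes, up to 3 pseudogenes, 5 genes most like the members, and from the gene lists those called the same way with both hairpins of a line, at most 2 per direction by mean fold change and at 5 CPM or more. The members and lists were chosen with earlier results of these data known. Alternatives were other scalings, filters, pseudocounts and tools, fits of the compared groups only, the replicate block, and leaving out each library.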

Additional observations from a re-analysis of the deposited data

Results flagged for a closer look

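The difference between the cell lines in the effect of shRNA1, tested in 1 limma fit as the effect in MM1.S minus that in H929, passed the threshold for 4 protein-coding genes of the mitochondrial genome. It was 0.91 ± 0.19 for MT-CO1 (limma adjusted p = 0.00486), where the effects were 0.14 in MM1.S and -0.76 in H929. It was 0.61 ± 0.17 for MT-ND1 (limma adjusted p = 0.0216), with effects of 0.24 in MM1.S and -0.37 in H929. Outside the 10 members, it was 0.47 ± 0.15 for MT-ATP8 (limma adjusted p = 0.0377) and 0.47 ± 0.15 for MT-ND4L (limma adjusted p = 0.0441). MT-CO1 passed in all 8 fits without a library, MT-ND1 in 5, MT-ATP8 in 3 and MT-ND4L in 2.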

How the results depend on the processing

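The 7 members lower with shRNA1 in H929 became 3 with library-total scaling (median -0.17) and 3 to 8 without a library; MT-ND2 (0.01) and MT-CYB (0.13, and 0.00 with nuclear-gene scaling) turned positive there. The 1 member higher with shRNA2 in H929 became 9 with library-total scaling (median 0.37, beside 27.0% of all genes) and 6 with edgeR on recovered reads (0.26, beside 20.2%). It became 5 with nuclear-gene scaling (0.27), where 3871 of 18646 genes were called higher. The compared groups only gave 4, beside 3882 of 16989 genes, and TMM gave 3, beside 3532 of 18579. The replicate block gave 2, beside 18.0% of all genes. No filter gave 0 (2508 of 39615 genes), as did a pseudocount of 8 (3325 of 18213). Without a library the median was 0.19 to 0.22. The difference between the H929 hairpins ranged over 3 to 10 members (median 0.43 to 0.60) without a library. For the scramble groups 0 members passed with library totals (median -0.01), beside 10.2% of all genes higher and 18.9% lower. With the compared groups only 0 passed too, beside 2995 of 16884 genes higher and 2213 lower. Without a library the median was 0.07 to 0.19. In MM1.S, library totals gave 2 members higher with shRNA1 (median 0.19) and a median of 0.19 with shRNA2, where MT-CO2 (0.06) and MT-ND3 (0.02) changed sign, and the block gave 1 with shRNA1. For shRNA2 over shRNA1, 1 member was higher with median-of-ratios, library-total and nuclear-gene scaling, beside 3038, 2785 and 3127 of 17820 genes. With the block 1 was higher too, beside 28.7% of all genes. Without a library the MM1.S medians were 0.05 to 0.19 for shRNA1, 0.02 to 0.18 for shRNA2 and -0.11 to 0.10 between hairpins. Between lines, the shRNA1 effect gave 5 members with the block and 1 to 2 without a library (median 0.29 to 0.45); the shRNA2 median was -0.19 with library totals, -0.21 with edgeR and -0.19 to -0.03 without a library. Signs also changed without a library for MT-ND3 (-0.03 to 0.08) and MT-RNR2 (-0.05 to 0.35) with shRNA1 in MM1.S, for MT-CO2 (-0.15 to 0.06), MT-ATP6 (-0.07 to 0.19) and MT-CYB (-0.12 to 0.20) with shRNA2 in MM1.S, and for MT-CYB (-0.26 to 0.19) with shRNA1 in H929. The difference in summed share was 1.55, 1.52 and 1.70 percentage points over nuclear reads and 1.62, 1.87 and 1.78 for all of chromosome MT, in MM1.S with shRNA1, MM1.S with shRNA2 and H929 with shRNA2, in place of 1.22, 1.17 and 1.43. The cause of these changes was not tested.

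In H929 same-numbered libraries did not deviate together (r of -0.198 to 0.238 over 9582 genes), so the numbers were not taken as pairs. The replicate block left 7 members lower with shRNA1, beside 27.7% of all genes, and 2 higher with shRNA2, beside 18.0%. Crossed numbers for the scramble groups, an alternative chosen after seeing the data, left 1 member higher, beside 3259 of 18213 genes. Groups of 2 limit every statement more than depth does, and a fit without a library assumes that the lone library varies like the others.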

Other observations

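Reads of the 22 mitochondrial transfer RNAs, which mostly fall out of poly(A) selection, made up 0.0740% and 0.0753% of reads with shRNA1 and 0.0703% and 0.0785% with shRNA2 in MM1.S, against 0.0487% and 0.0460% in scramble. In H929 they made up 0.0301% and 0.0309% with shRNA1, against 0.0293% and 0.0265% in its scramble, and 0.0375% and 0.0390% with shRNA2, against 0.0289% and 0.0201% in its scramble. Knockdown libraries stood above their scramble libraries in all 4 comparisons, as shares of library totals. How many of all genes did so was not counted. With library-total scaling the median log2 fold change of all genes was above 0 too. It was 0.12 with shRNA1 and 0.08 with shRNA2 in MM1.S, and 0.15 and 0.14 in H929. With shRNA1 in H929 the transfer RNA means were 0.0305% against 0.0279% in scramble, which is no larger than that shift of all genes.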
